A study of Rattus norvegicus with 10 samples.

Results

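The genes described here are the retinal progenitor transcription factors Sox2, Pax6, Rax and Lhx2, the Notch effectors Hes1 and Hes5, and Nes and Fabp7, which encode structural and lipid-binding proteins of the same cells. They were chosen by name, as known progenitor genes, though with earlier results of these data known. Each was read from the probe set that carries its symbol alone in the platform annotation. All 8 were measured, each by 1 such probe set, among 14324 named genes on the array.

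The study set cyclic hyperoxia against room air in SD (outbred Sprague Dawley) and F344 (inbred Fischer) rats. Its design text speaks of a strain resistant and a strain susceptible to oxygen-induced retinopathy, a model of retinopathy of prematurity, without saying which is which. Exposed litters entered an oxygen chamber within 12 hours of birth and alternated between 24 hours in 80% oxygen and 24 hours in 21% oxygen until postnatal day 3. Control litters stayed in room air to the same age, and the labels name no engineered allele. Each array held retinal RNA pooled from 3 rats of 2 litters, with different rats in each pool, so variation between single rats cannot be seen. There were 2 pools of SD hyperoxia, 3 of SD room air, 3 of F344 hyperoxia and 2 of F344 room air.

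Progenitor cells of the vertebrate retina divide while they hold the factors Sox2, Pax6, Rax and Lhx2, and in newborn rats they still produce rods, bipolar cells and Mueller glia. Notch signalling helps to keep them from differentiating. A ligand on a neighbouring cell leads to cleavage of the Notch receptor, whose inner part joins the DNA-binding protein Rbpj and a Mastermind protein and switches on Hes1 and Hes5, which repress genes that start neuronal differentiation.

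Values are log2 expression, given to 1 decimal, so 0.1 is the smallest step. Array medians over all probe sets lay between 5.9 and 6, and every value of the 8 genes was above them. Among the named genes Fabp7 ranked from the 45.6th to the 56.9th percentile of a pool, and the rest of the 8 from the 60.5th upward. The retinal label was checked on photoreceptor genes. Crx, a photoreceptor transcription factor, lay between 10.7 and 11.2 in the 10 pools, and Nrl, which sets rod identity, between 9 and 9.6. A pair of pools stood apart from the rest in the overall pattern. On the first principal component, with 34.1% of the variance, SD room-air pool 3 lay at 36.4 and F344 hyperoxia pool 3 at 30.1, and the other 8 between -13.4 and -1.77. By the design text, each of these groups gained 1 array once the principal components of 8 earlier ones had been seen. The pools numbered 3 are taken to be those arrays, which is an inference from the numbering. Values without them are given beside the results that they moved most.

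A promoter window of 250 bases is shown for each of Hes1, Hes5 and Fabp7. Hes1 and Hes5 are read by the same Notch complex, and Hes5 and Fabp7 gave the differences described further on. Sequences are from RefSeq, build GRCr8, written 5′ to 3′ in the direction of the gene. Each ends at the base before the start used for that promoter window, which can differ from the listed gene start. The Hes1 window adjoins the listed gene. The Hes5 window runs past the listed gene start at 170804511, and the Fabp7 window lies inside the listed gene, 37667125 to 37673299. Capitals mark GTGGGAA, the core bound by Rbpj, on either strand.
Hes1, chr11:84213046-84213295, minus strand: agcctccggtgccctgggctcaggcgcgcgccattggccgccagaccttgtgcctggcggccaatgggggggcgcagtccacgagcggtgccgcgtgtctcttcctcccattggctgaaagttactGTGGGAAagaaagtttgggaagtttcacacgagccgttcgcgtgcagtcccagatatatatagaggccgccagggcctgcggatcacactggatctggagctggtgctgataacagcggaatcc
Hes5, chr5:170804327-170804576, plus strand: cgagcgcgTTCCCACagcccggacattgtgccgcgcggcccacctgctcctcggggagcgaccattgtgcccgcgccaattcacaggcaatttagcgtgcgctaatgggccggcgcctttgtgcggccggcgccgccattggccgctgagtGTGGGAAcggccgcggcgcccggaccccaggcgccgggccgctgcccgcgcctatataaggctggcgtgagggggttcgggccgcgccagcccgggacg
Fabp7, chr20:37669356-37669605, plus strand: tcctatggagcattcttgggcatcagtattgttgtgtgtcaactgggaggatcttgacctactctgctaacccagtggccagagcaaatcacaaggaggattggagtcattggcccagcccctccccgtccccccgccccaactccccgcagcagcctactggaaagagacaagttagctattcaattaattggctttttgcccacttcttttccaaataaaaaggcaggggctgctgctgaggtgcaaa
Distances are counted back from the start at which each window ends, not from the listed gene start. Hes1 held 1 match, from 124 to 118 bases before that start. Hes5 held 2, from 242 to 236 bases on the opposite strand and from 99 to 93 bases on its own strand. The other 6 genes held 0 matches in this window. Of 33469 RefSeq windows of the same length, 5.27% held the motif. The N-box CACNAG, a sequence bound by Hes proteins, matched 4 times in Hes1, 0 times in Hes5 and 1 time in Fabp7, with 37.2% of all windows holding at least 1 match. The E-box CANNTG, which reads the same on both strands and is bound by other basic helix-loop-helix proteins, matched 1 time each in Hes5 and Fabp7 and 0 times in Hes1, with 65.5% of all windows holding it. In these 3 windows no match of the 3 motifs overlapped another. A match of letters is a description of the window and not a measured binding site.

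The transcription factors differed little between the 10 pools. Pax6, a paired-box factor needed for the full range of retinal cell fates, stood at 11.6 and 11.7 in SD hyperoxia and at 11.6, 11.7 and 11.5 in SD room air. In F344 it stood at 11.5, 11.6 and 11.5 in hyperoxia and at 11.5 in both room-air pools. Its whole range was 0.2, or 2 steps of the deposited scale, and the exposure groups overlapped in each strain. Lhx2, a LIM-homeobox factor of optic vesicle and progenitor cells, stood at 9.4 and 9.6 in SD hyperoxia and at 9.3, 9.5 and 9.5 in SD room air. Its F344 values were 9.4, 9.3 and 9.4 in hyperoxia and 9.2 and 9.3 in room air. The groups of Lhx2 overlapped within each strain, and its range over all pools was 0.4.

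Sox2, an HMG-box factor that also persists in Mueller glia, stood at 8.6 and 8.7 in SD hyperoxia, against 8.6, 8.8 and 8.8 in SD room air. In F344 hyperoxia it stood at 8.6, 8.7 and 8.5, against 8.6 and 8.3 in F344 room air. F344 room-air pool 2 was the lowest of the 10, and the groups overlapped in both strains. Rax, a homeobox factor required to form the eye, stood at 8.7 and 9 in SD hyperoxia, against 8.9, 9.3 and 8.7 in SD room air. Its F344 values were 9.1, 9.1 and 8.8 in hyperoxia and 9 and 8.8 in room air. Rax was higher in SD room-air pool 2 than in any other pool, and in both groups with a pool numbered 3 that pool was the lowest.

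Hes1, a repressor induced by Notch and by other signals, stood at 8.2 in both SD hyperoxia pools and at 8.4 in all 3 SD room-air pools. In F344 it stood at 8.2, 8.7 and 8.4 in hyperoxia and at 8.3 in both room-air pools. The SD groups lay 2 steps of the scale apart, while the F344 hyperoxia pools lay on both sides of room air. Hes5, the repressor most closely tied to Notch in neural progenitors, stood at 10 and 10.1 in SD hyperoxia, against 10, 10.4 and 9.7 in SD room air. In F344 it stood at 10.1, 9.9 and 9.6 in hyperoxia, against 9.9 and 9.6 in room air. Exposure groups of Hes5 overlapped in both strains, and its spread among pools of 1 group was as wide as 0.7.

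Nes, which encodes the intermediate filament nestin of neural progenitors, stood at 8.2 and 8.3 in SD hyperoxia and at 8, 8.3 and 7.9 in SD room air. In F344 it stood at 7.8, 7.7 and 7.7 in hyperoxia and at 7.6 and 7.5 in room air. Every SD pool was above every F344 pool. Fabp7, a fatty acid binding protein of radial glia and of glial precursors, stood at 6.5 and 6.6 in SD hyperoxia, against 6.9, 6.8 and 7.3 in SD room air. Its F344 values were 6.4, 6.3 and 7.2 in hyperoxia and 6.6 and 6.5 in room air. Fabp7 had the widest range of the 8 genes, 1 on the log2 scale, and its 2 highest pools were those numbered 3.

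**Figure D1:**
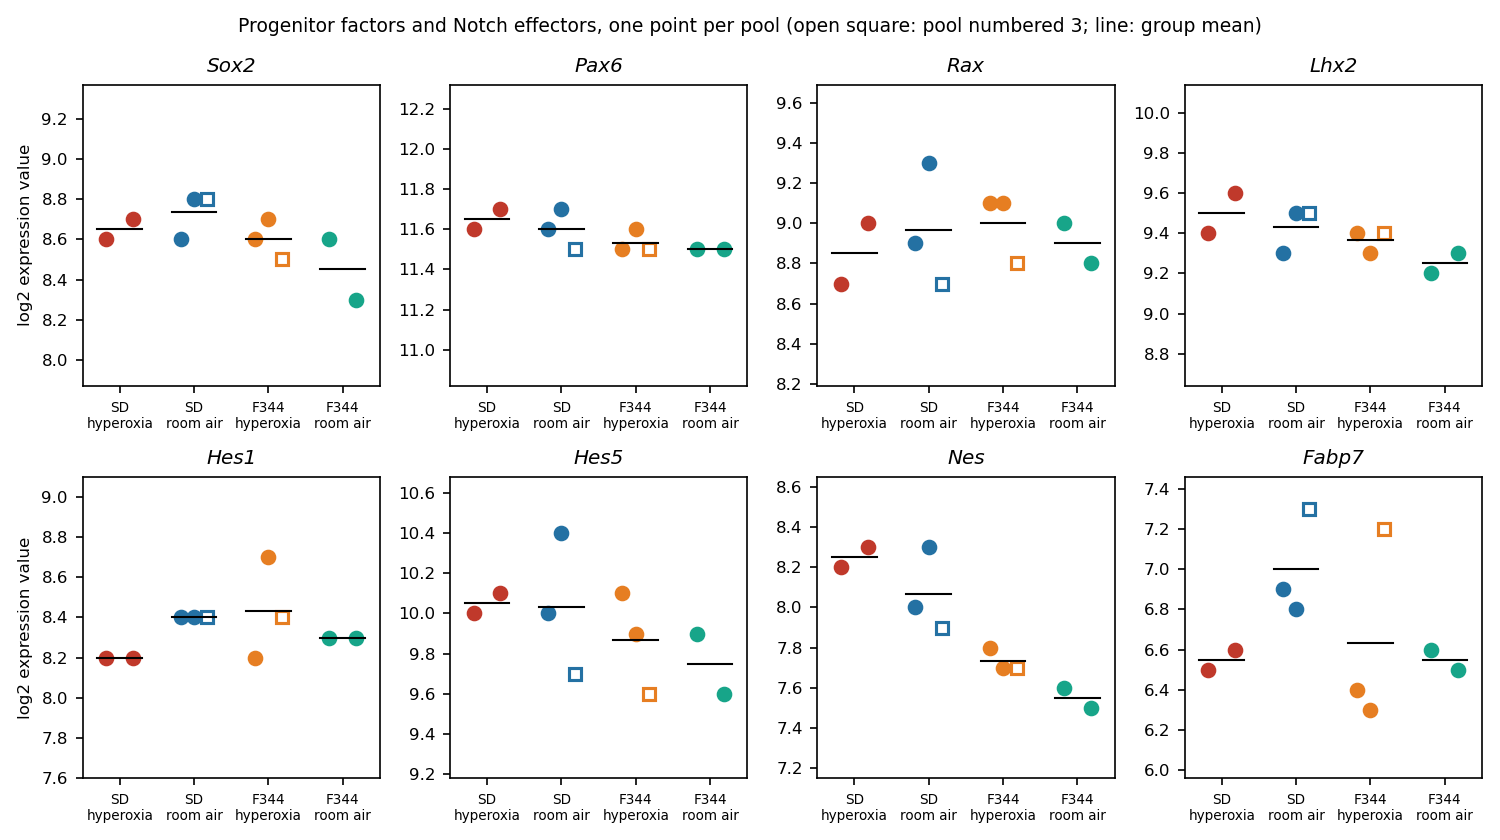
Log2 expression values (vertical axis, 1.5 log2 units in each panel) of the 8 genes in SD hyperoxia, SD room air, F344 hyperoxia and F344 room air. Each point is 1 pool, open squares are the pools numbered 3 and the line is the group mean. Nes is higher in every SD pool, and Fabp7 is highest and Hes5 low in the pools numbered 3.

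The first question was whether cyclic hyperoxia changed these genes by postnatal day 3. In SD, 0 of 8 passed by limma at an adjusted p of 0.05, and 0 had an unadjusted p under 0.05, with 2 hyperoxia and 3 room-air pools. In the same comparison 0.0489% of all 14324 genes passed. Fabp7 averaged 6.55 ± 0.071 in SD hyperoxia and 7 ± 0.26 in SD room air (SD, n = 2 and 3), a log2 difference of -0.45 (95% interval -0.95 to 0.05, limma adjusted p = 0.815). Hes1 averaged 8.2 in SD hyperoxia and 8.4 in SD room air, with no spread between pools at 1 decimal, a difference of -0.20 (interval -0.48 to 0.08, limma adjusted p = 0.815). For these 2 genes every SD hyperoxia pool was below every SD room-air pool, which held for 7.34% of all genes. The other 6 differences lay between -0.12 (Rax, interval -0.49 to 0.26) and 0.18 (Nes, interval -0.09 to 0.45). Without SD room-air pool 3 the SD difference was -0.20 for Hes1, -0.25 for Rax, -0.15 for Hes5 and 0.10 for Nes, and none of these passed. The median of the 8 differences with all pools was -0.03 and that of all genes 0.

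In F344, 0 of 8 passed by limma and 0 had an unadjusted p under 0.05, while 0.00698% of all genes passed. All 8 differences were above 0, from 0.03 (Pax6, interval -0.19 to 0.26) to 0.18 (Nes, interval -0.09 to 0.45), with a median of 0.12 against 0 for all genes. They share the same 5 arrays, and 47.1% of all genes lay above 0. The common sign rested on single pools. Without F344 room-air pool 2, Sox2 and Rax stood at 0 and Hes5 at -0.03. Hes5 stood at 0 without F344 hyperoxia pool 1, and Pax6 and Hes1 stood at 0 without F344 hyperoxia pool 2. Nes averaged 7.73 ± 0.058 in F344 hyperoxia and 7.55 ± 0.071 in F344 room air (SD, n = 3 and 2). Its hyperoxia pools were all above its room-air pools, which held for 6.6% of all genes. Hes5 stood at 0.12, and its interval from -0.30 to 0.54 includes changes of either sign.

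The direction of the Fabp7 value in F344 also turned on 1 pool. Its log2 difference was 0.08 (interval -0.41 to 0.58) with all pools and -0.20 without F344 hyperoxia pool 3 (limma adjusted p = 0.951). Without both pools numbered 3 the difference was -0.30 in SD and -0.20 in F344 (limma adjusted p = 0.613 and 0.845). Neither passed. Pools 1 and 2 of F344 hyperoxia, at 6.4 and 6.3, were below both F344 room-air pools, at 6.6 and 6.5.

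A difference in exposure effect between the strains was tested as the SD effect minus the F344 effect. By limma 0 of 8 genes passed, against 0% of all genes. An unadjusted p under 0.05 was found for 0 of 8, against 6.98% of all genes. The largest differences of effects were those of Fabp7 at -0.53 (interval -1.24 to 0.17) and Hes1 at -0.33 (interval -0.74 to 0.07). That of Nes was 0 (interval -0.38 to 0.38). Without both pools numbered 3, the difference of effects was -0.10 for Fabp7, -0.35 for Hes1, -0.45 for Rax and -0.40 for Hes5, and none of these passed. Averaged over both strains, 0 of 8 passed by limma, against 0.0628% of all genes, and 0 had an unadjusted p under 0.05, against 3.62%. Nes stood highest there, at 0.18 (interval -0.01 to 0.38).

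The second question was whether the strains differed. Nes was higher in SD than in F344 by the same amount under both exposures, 0.52 on the log2 scale (interval 0.25 to 0.79) or 1.43-fold. The single comparisons did not pass (limma adjusted p = 0.155 in hyperoxia and 0.116 in room air). In hyperoxia 0 of 8 genes passed by limma, against 0.475% of all genes, and 1 had an unadjusted p under 0.05, against 6.71% of all genes. In room air 0 of 8 passed, against 0.552% of all genes, and 2 had an unadjusted p under 0.05, against 11.4% of all genes. Every SD pool was above every F344 pool for Hes1, Nes and Fabp7 in room air (10.8% of all genes) and for Nes in hyperoxia (8.04% of all genes). The mean of both strain differences was added after the data were seen. In it Nes passed (0.52, SE 0.088, limma adjusted p = 0.00998), 1 of 8 genes against 1.49% of all genes. All 5 SD pools were above all 5 F344 pools in 1.28% of all genes, as in Nes.

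Nes passed in 7 of the 10 fits that left out 1 pool. The limma adjusted p was 0.0591 without SD hyperoxia pool 1, 0.0869 without SD hyperoxia pool 2 and 0.0892 without F344 room-air pool 2, and the difference stayed between 0.46 and 0.56. Without both pools numbered 3 it was 0.55 (limma adjusted p = 0.0208). Nestin is also known from astrocytes and growing vessels, so their markers are given beside it. Of 8 measured endothelial genes 4 were above 0 and 4 below in the mean strain difference (median -0.004), and of 7 astrocyte genes 3 were above and 4 below (median -0.09). Endothelial list means ran from 4.86 to 5.56 in SD pools and from 4.93 to 5.39 in F344 pools, and 0 genes of either list passed. Astrocyte list means ran from 6.04 to 6.27 in SD pools and from 6.13 to 6.19 in F344 pools. Other lists leaned one way in the same comparison. Of 12 photoreceptor genes 11 were above 0 and 1 below (median 0.17, 1 called), of 6 fibroblast genes 6 were above 0 (median 0.11), and of 9 ganglion cell genes 2 were above and 7 below (median -0.12). The called gene was Opn1sw, the short-wave cone opsin, at 0.71 (limma adjusted p = 3.54e-04), and 3 photoreceptor genes passed without SD room-air pool 1 or F344 hyperoxia pool 3. Leaving out SD hyperoxia pool 1 gave a fibroblast median of -0.05, and leaving out SD room-air pool 3 gave -0.13. Photoreceptor list means ran from 8.93 to 9.32 in SD pools and from 8.67 to 9.16 in F344 pools. The part of these cells in the Nes value was not tested. In whole retina a difference in the number of cells that hold a transcript and a difference in transcript per cell cannot be told apart.

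The other 7 genes gave strain differences that did not pass. In room air Sox2 stood at 0.28 (interval 0.02 to 0.55, limma adjusted p = 0.414), Fabp7 at 0.45 (interval -0.05 to 0.95) and Hes5 at 0.28 (interval -0.14 to 0.70). The Sox2 value was 0.13 without F344 room-air pool 2 and 0.43 without F344 room-air pool 1. All 8 were above 0 in room air, with a median of 0.23 against 0 for all genes, but Rax stood at -0.10 without SD room-air pool 2 and at -0.03 without F344 room-air pool 2. In hyperoxia 5 were above 0 and 3 below, with a median of 0.08, and Hes1 stood lowest at -0.23 (interval -0.52 to 0.05). Fabp7 stood at -0.08 there with all pools and at 0.20 without both pools numbered 3. Without SD room-air pool 3 the room-air difference was 0.45 for Hes5 and 0.30 for Fabp7, and neither passed.

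Among other genes of the pathway and of progenitors, few differed between the strains. In the mean strain difference 1 of 32 measured Notch pathway genes passed, against 1.49% of all genes. Hey2, a repressor related to Hes1, stood at 8.4 in both SD hyperoxia pools and at 8.5, 8.6 and 8.5 in SD room air, against 8.9, 8.8 and 8.8 in F344 hyperoxia and 8.8 and 8.9 in F344 room air. Every SD pool of Hey2 was below every F344 pool, with a difference of -0.38 (SE 0.07, limma adjusted p = 0.0173). The share of all genes that lay lower in every SD pool is not given here. The Notch count dropped to 0 without any 1 of both SD hyperoxia pools, both F344 room-air pools and F344 hyperoxia pool 1.

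Of 14 measured genes on the wider progenitor list 1 passed, against 1.49% of all genes. Lhx9, a LIM-homeobox factor, stood at 8.1 and 8.2 in SD hyperoxia and at 8.2, 8 and 8.1 in SD room air, against 7.7, 7.7 and 7.8 in F344 hyperoxia and 7.9 and 7.6 in F344 room air. It was higher in SD by 0.38 (SE 0.083, limma adjusted p = 0.0435). Every SD pool of Lhx9 was above every F344 pool, which held for 1.28% of all genes. That count was 0 in 8 of the 10 fits that left out 1 pool, and 1 without either of F344 room-air pool 1 and F344 hyperoxia pool 3. Of 12 measured Mueller and radial glia genes 0 passed by limma, with Spon1 at 0.39 and Vim, the filament vimentin, at 0.25. The list medians were 0.03 for the Notch pathway, 0.09 for the wider progenitor list and 0.07 for glia.

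**Figure D2:**
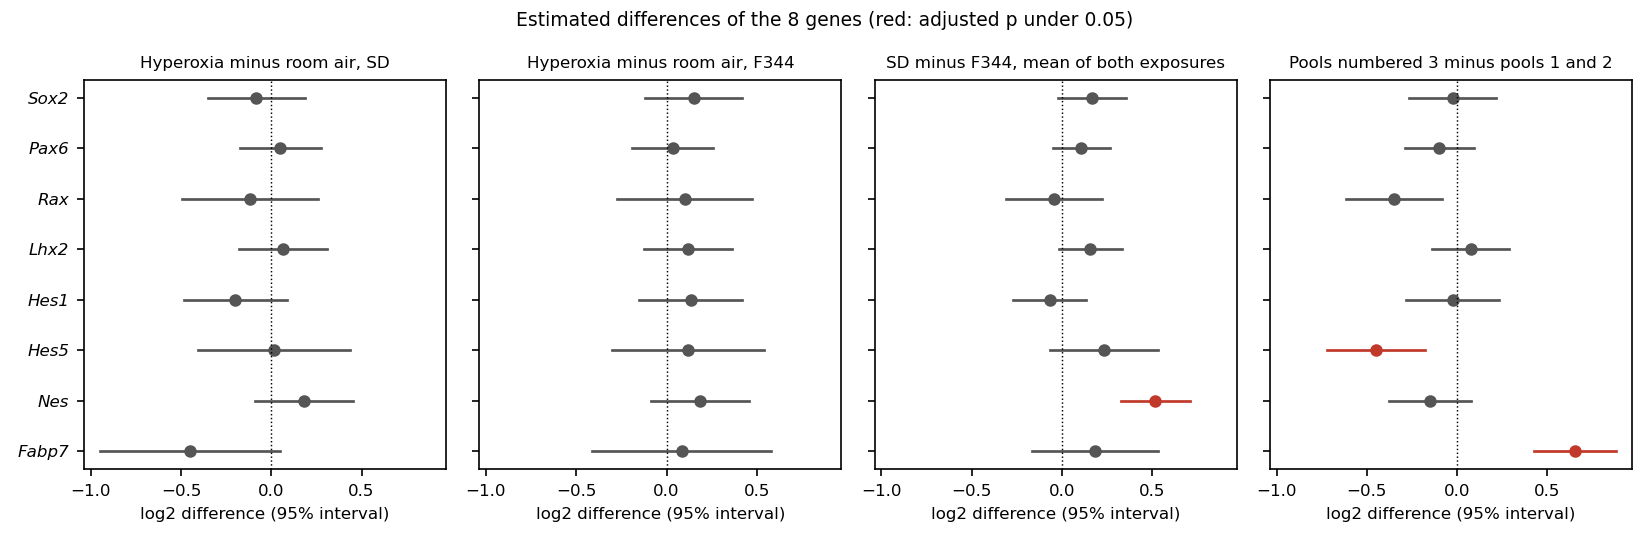
Log2 differences of the 8 genes (horizontal axis) with 95% intervals from the limma fit, for hyperoxia minus room air in SD, the same in F344, the mean of SD minus F344 over both exposures, and the pools numbered 3 minus pools 1 and 2. Red marks an adjusted p under 0.05, reached by Nes between strains and by Hes5 and Fabp7 in the pools numbered 3.

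In the exposure comparisons few genes of any kind passed, and 0 were on the pathway lists. In SD 0 of 32 Notch pathway genes passed by limma (median -0.02), with Mib1, a ligase that activates ligands, at 0.30 and the receptor gene Notch3 at -0.30. In F344 0 of 32 passed (median -0.02), with Notch3 at -0.57 and the ligand gene Dll4, known from vessel tips, at -0.37. Of the wider progenitor list 0 of 14 passed in either strain. Of 8 endothelial genes 0 passed in either strain, and all 8 lay below 0 in both (median -0.38 in SD and -0.32 in F344). Of all genes 49.4% lay above 0 in SD and 47.1% in F344. Endothelial list means, 4.86 to 5.56 over the pools, were below the array medians of 5.9 to 6. The SD median was -0.275 without SD room-air pool 3, and the F344 median -0.325 without F344 hyperoxia pool 3. All 8 stayed below 0 in both. The part of endothelial genes in the Notch3 and Dll4 values was not tested. In SD, 6 of 6 fibroblast and 7 of 9 ganglion cell genes also lay below 0 (median -0.33 and -0.23). In F344, 2 of 6 and 3 of 9 did (median 0.12 and 0.10). Above 0 lay 22 of 26 cell cycle genes in SD (median 0.12), against 8 in F344 (-0.07). Photoreceptor genes lay above 0 for 11 of 12 in F344 (median 0.23) and 4 in SD (-0.025). None of these genes passed, and their values without the pools numbered 3 are not given here. Zic1 and Id2 stood at -0.35 and -0.27 in SD, and Sox8 and Id1 at 0.20 and 0.18 in F344. Of 12 glial genes 0 passed in either strain, with Apoe at -0.23 in SD and the potassium channel gene Kcnj10 at -0.53 in F344. In F344 10 of these 12 lay below 0 (median -0.11), and 7 of 12 without F344 hyperoxia pool 3 (median -0.05). Without SD room-air pool 3 the SD values were 0.20 for Mib1, -0.15 for Zic1 and -0.10 for Apoe. Without F344 hyperoxia pool 3 the F344 values were -0.40 for Notch3, -0.25 for Dll4, 0.30 for Sox8 and 0.35 for Id1. Unadjusted p-values under 0.05 were found for 4.68% of all genes in SD and 4.91% in F344.

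The third comparison set the pools numbered 3 against pools 1 and 2 of their groups, as 1 term in a fit with a mean per group. One pool is of SD in room air and the other of F344 in hyperoxia, so the term is neither an exposure nor a strain. Of the 8 genes, Fabp7 was higher and Hes5 lower. In all, 16.1% of the 14324 genes passed, so 2 of 8 genes passing is no feature of these genes. That background itself rests on both pools. Of 27342 probe sets 4057 passed, against 371 without SD room-air pool 3, 733 without F344 hyperoxia pool 3 and 1812 with only the 2 groups that hold such a pool.

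Fabp7 stood at 7.3 in SD room-air pool 3, against 6.9 and 6.8 in the other pools of that group, and at 7.2 in F344 hyperoxia pool 3, against 6.4 and 6.3. Pool 3 was above both others by at least 4 steps of the scale in each group. The estimate was 0.65 (SE 0.105, 1.57-fold, limma adjusted p = 0.00164), and without F344 hyperoxia pool 3 it was 0.45 (limma adjusted p = 0.0787). It passed without each of the other 9 pools.

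Hes5 stood at 9.7 in SD room-air pool 3, against 10 and 10.4, and at 9.6 in F344 hyperoxia pool 3, against 10.1 and 9.9. Pool 3 was the lowest of its group both times, although F344 room-air pool 2 also stood at 9.6. Hes5 fell by 0.45 (SE 0.125, 1.37-fold, limma adjusted p = 0.0294). That call was the less stable of both and held in 3 of the 10 fits that left out 1 pool. The limma adjusted p was 0.33 without SD room-air pool 3, 0.214 without F344 hyperoxia pool 3, 0.0931 without F344 hyperoxia pool 1, 0.0567 without F344 hyperoxia pool 2, 0.0821 without SD room-air pool 2 and 0.0585 without either SD hyperoxia pool.

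Rax, at 8.7 and 8.8 in these pools, was also below both other pools of each group, with a difference of -0.35 (interval -0.62 to -0.08) that did not pass (limma adjusted p = 0.079). It passed with trend and robust eBayes (limma adjusted p = 0.0333), with arrays centred on their median (0.0267) and among the brighter probe sets (0.0485). Pool 3 lay beyond pools 1 and 2 on the same side in both groups for Fabp7, Hes5 and Rax, and for 34.4% of all genes. Hes1 stood at -0.03 (interval -0.28 to 0.23), Sox2 at -0.03 (interval -0.26 to 0.21), Lhx2 at 0.08, Pax6 at -0.10 and Nes at -0.15. Whether Hes1 and Hes5 moved unequally was not tested.

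**Figure D3:**
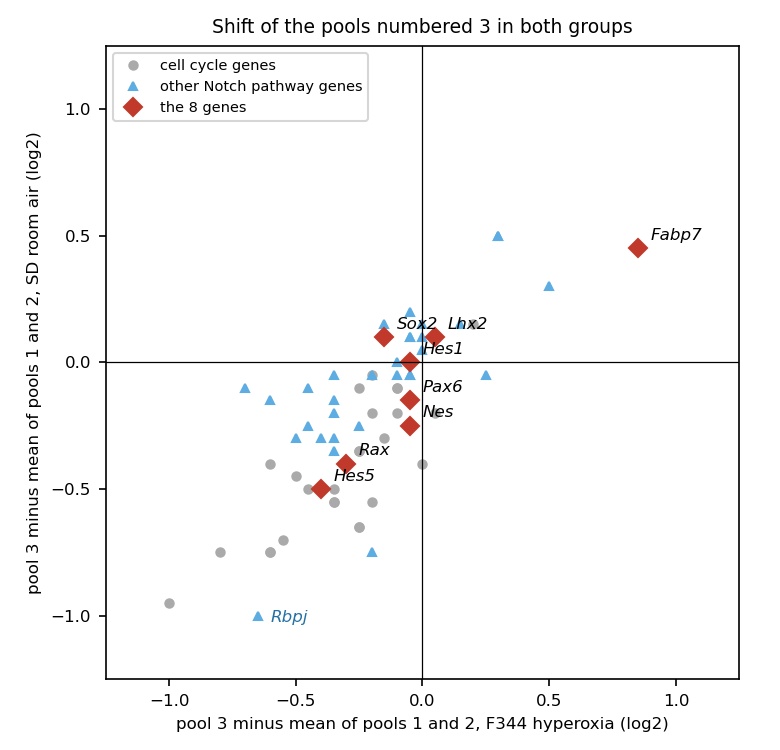
Pool 3 minus the mean of pools 1 and 2 in F344 hyperoxia (horizontal axis, log2) and in SD room air (vertical axis, log2), 1 point per gene. Diamonds are the 8 genes, triangles the other Notch pathway genes and grey points cell cycle genes. Fabp7 lies at 0.85 and 0.45, Hes5 at -0.40 and -0.50, and Rbpj at -0.65 and -1 in that axis order.

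Notch pathway genes lay lower more often than higher in the pools numbered 3. Of 32 measured, 8 fell and 2 rose, against 8.73% and 7.39% of all genes, and 22 did not pass (median -0.06, against 0 for all genes). Rbpj, the DNA-binding partner of Notch and itself the protein that reads GTGGGAA, stood at 7.9 in SD room-air pool 3, against 9 and 8.8, and at 8.2 in F344 hyperoxia pool 3, against 8.8 and 8.9. These were its 2 lowest pools of all 10. It fell by 0.82 (SE 0.108, limma adjusted p = 5.00e-04).

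Hes6, which promotes neuronal differentiation, stood at 8.1 in SD room-air pool 3, against 8.8 and 8.9, and at 8.4 in F344 hyperoxia pool 3, against 8.7 and 8.5. It fell by 0.48 (SE 0.13, limma adjusted p = 0.0275). Notch3 fell by 0.40 and the coactivator gene Maml1 rose by 0.40. The other 6 that passed are named after their values were seen. Notch1 fell by 0.38, the ligand gene Dll1 by 0.35, Mib1 by 0.35 and the protease gene Adam17 by 0.33. Both named gamma-secretase genes passed in opposite directions, as Ncstn fell by 0.35 and Psenen rose by 0.40.

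Wider progenitor genes were mixed. Of 14 measured, Foxn4, a factor for amacrine and horizontal fates, fell by 0.40 and Meis1, a homeobox factor, fell by 0.33. Zic1, a zinc finger factor, rose by 0.53. The list median was -0.13. The counts rest on both pools. Without SD room-air pool 3 the Notch list had 1 gene lower and 0 higher, and without F344 hyperoxia pool 3 it had 2 lower and 0 higher. It had 5 lower and 1 higher without F344 hyperoxia pool 1, 4 lower and 1 higher without F344 hyperoxia pool 2, and 5 lower and 2 higher without SD room-air pool 2 or either SD hyperoxia pool. The wider progenitor list had 0 called without either pool numbered 3.

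Other marker lists moved with these pools, in a comparison where 8.73% of all genes fell and 7.39% rose. Of 26 measured cell cycle genes 16 fell and 0 rose (median -0.40), led by Cdc6, a replication licensing factor, which fell by 0.97. Cell cycle list means were 8.56 in SD room-air pool 3 and 8.63 in F344 hyperoxia pool 3, against 8.85 to 9.01 in the other 8 pools. The cell cycle count was 1 without SD room-air pool 3, 6 without F344 hyperoxia pool 3, and 11 without F344 hyperoxia pool 2 or either of SD room-air pools 1 and 2.

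Ganglion cell, photoreceptor, pigment epithelium and fibroblast lists had calls only upward, against 7.39% of all genes higher and 8.73% lower. So did 4 further lists, with 2 of 7 microglia, 1 of 8 endothelial, 1 of 6 bipolar and 1 of 5 erythroid genes called. Of 9 ganglion cell genes 4 rose (median 0.35), of 12 photoreceptor genes 4 rose (median 0.15), of 6 pigment epithelium genes 3 rose (median 0.45) and of 6 fibroblast genes 4 rose (median 0.79), with 0 falls in these 4 lists. Within the photoreceptor list Prdm1 and Thrb stood at -0.20 and -0.25. Among them Gngt1, a rod transducin subunit, rose by 1.38 and Nefm, a neurofilament gene of ganglion cells, rose by 0.77. Ttr, abundant in pigment epithelium, rose by 1.23 and the matrix gene Dcn rose by 1.08. The fibroblast list mean was 6.78 in SD room-air pool 3 and 5.73 in F344 hyperoxia pool 3, against 5.2 to 5.82 in the other 8 pools, so 1 of these pools was not above all others. Pool 3 differed from pools 1 and 2 by a fibroblast list median of 1.27 in SD room air and 0.05 in F344 hyperoxia. Without SD room-air pool 3 the calls were 0 for fibroblast and for pigment epithelium genes, 1 for ganglion cell genes and 2 for photoreceptor genes. Without F344 hyperoxia pool 3 they were 4, 1, 1 and 2 in that order. With any 1 of the other 8 pools left out, the rises ran from 0 to 2 for fibroblast, 1 to 3 for pigment epithelium, 1 to 4 for ganglion cell and 3 to 4 for photoreceptor genes, and 1 ganglion cell gene fell without F344 hyperoxia pool 1. Of 11 amacrine and horizontal genes 2 rose and 2 fell, with 0 calls without either pool numbered 3. No marker can be at 0 on this scale. The part of these markers in the Hes5, Fabp7 and Rbpj values was not tested.

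**Figure D4:**
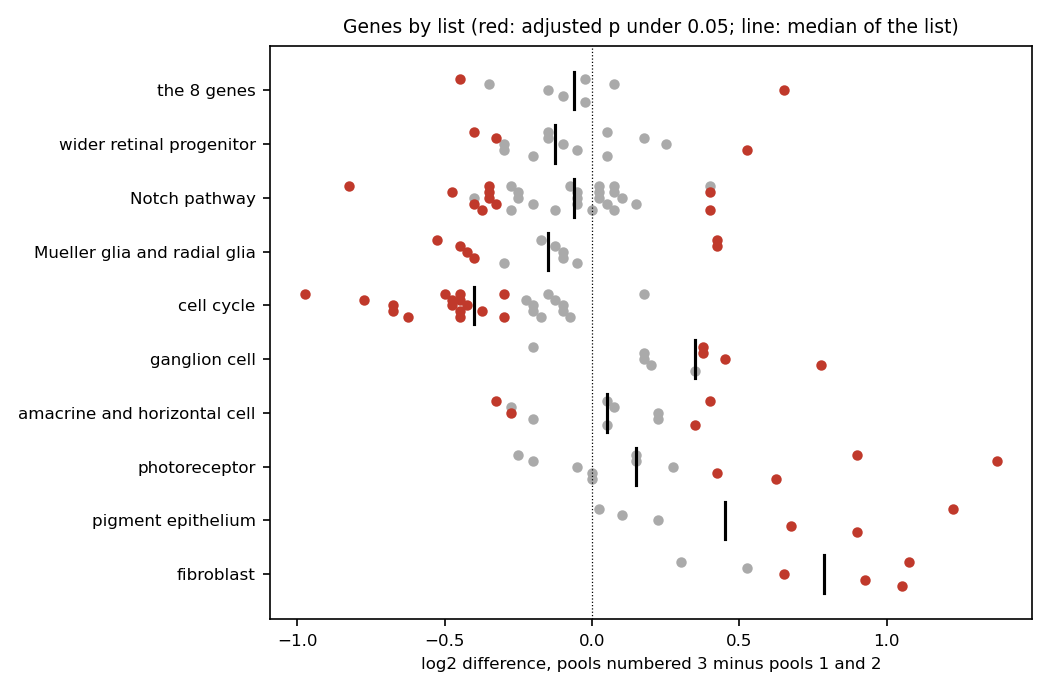
Log2 difference between the pools numbered 3 and pools 1 and 2 (horizontal axis), 1 point per gene, for the 8 genes and 9 marker lists. Red points have a limma adjusted p under 0.05 and the black line is the median of the list, -0.40 for cell cycle genes and 0.79 for fibroblast genes.

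The genes nearest in pattern were found by the root-mean-square difference of centred log2 values over the 10 pools, among genes whose SD was at least 50% of the member's. This is a description of these 10 arrays, which share the shift of the pools numbered 3. For Hes5 they were Aurkb, a mitotic kinase gene, at 0.049 log2, Hspbp1 at 0.064 and Pde4b at 0.075, set against an SD of 0.25 for Hes5 itself. For Rax they were the neural factor gene Pou3f2 at 0.08, Fkbp1a at 0.081 and Ppfia3 at 0.083. For Nes they were Cnp at 0.083, Tagln2 at 0.092 and Rhpn2 at 0.10, with an SD of 0.29 for Nes. For Fabp7 they were Lxn at 0.10, Lypd6 at 0.11 and Anp32b at 0.11, with an SD of 0.33 for Fabp7.

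The flatter genes have less pattern to match, and their nearest genes are given for completeness. These were Erc1, Rab35 and H2az2 for Sox2, Ap3b1, Nsf and Brsk1 for Pax6, Pcsk1n, Prrx1 and Or13a26c for Lhx2, and Mei4, Yipf5 and Jmjd6 for Hes1, all between 0.03 and 0.087 log2. Within the 8 genes the nearest pair was Pax6 and Lhx2 at 0.098 and the farthest Hes5 and Fabp7 at 0.453. Hes5 was nearer to Rax, at 0.158, than to Hes1, at 0.296.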

How the data were processed

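Retinal RNA pools were hybridised to Affymetrix whole-transcript arrays, 10 in all, without reduction of ribosomal RNA per the labels' protocols. The deposited values are log2 expression per probe set, rounded to 1 decimal, from 3.1 to 14. Per the submitters' processing notes, which give no order of steps, RMA and Partek 6.4 were used. How background was corrected and arrays were scaled is not given in the sources used here, nor is the annotation. Precision is limited by the number of arrays, and signal over background was not analysed here.

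All 27342 probe sets entered the fits, and 15097 carried 1 gene symbol, 323 several and 11922 none in the platform annotation, which served for names. Of a gene's probe sets the one with the highest mean over the 10 arrays was used. In R 4.3.3, limma 3.58.1 fitted a mean per group to all 10 arrays (6 residual degrees of freedom), with eBayes at default settings, two-sided tests, and Benjamini-Hochberg adjustment over all probe sets at 0.05. The pools numbered 3 were compared in a fit with 1 more term (5 residual degrees of freedom). Intervals are 95% intervals of that fit, not adjusted for the number of genes. The fit was tested on simulated data.

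Groups came from the sample titles. The genes, 15 marker lists and tests were chosen with earlier results of these data known. Named list genes are up to 4 that passed or otherwise up to 2 with the largest change in a comparison, with further names marked as chosen after their values were seen, and 3 nearest genes were named for each member. All 8 genes matched RefSeq promoter windows (GRCr8) by symbol.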

Additional observations from a re-analysis of the deposited data

How the results depend on the processing

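Over the 7 planned comparisons and the added one, 1232 values of the 8 genes were recomputed under alternatives. Of 1179 values that did not pass, 7 passed under an alternative, and of 53 that passed, 41 still did; 0 of those that passed changed direction. In SD minus F344 in room air the count of the 8 genes that passed was 1 (Nes) with array weights, with the term for the pools numbered 3 and with the replicate number as a block, and in hyperoxia it was 1 (Nes) with array weights, against 0 each. In the added mean strain difference the count ran from 0 to 1 when 1 pool was left out. For the pools numbered 3 it ran from 0 to 2 when 1 pool was left out, and was 1 with only the 2 groups that hold such a pool (Hes5 at a limma adjusted p of 0.107). The replicate block gave Nes a room-air difference of 0.57 (limma adjusted p = 0.04998). Whether the replicate numbers mark a pairing of the samples cannot be told from these values. Of 13 same-numbered pairs of arrays from different groups, 4 had deviations that correlated above 0.1, from -0.073 to 0.64 over all pairs. Deviations within a group sum to 0, so in groups of 2 pools the pairs mirror each other and are not independent. All 3 pairs of F344 hyperoxia and SD room air, groups that differ in strain and exposure and are not compared, were among those 4 (0.31 to 0.64). Differently numbered pairs of these groups correlated from -0.48 to 0.23. The block changed no other call among the 8 genes. Without both pools numbered 3 the count was 0 of 8 in both exposure comparisons and in both strain comparisons. Counts over all probe sets moved more: over the alternatives they ran from 0 to 29 for hyperoxia in SD (12 as reported), 0 to 4 in F344 (1), 1 to 44 for the mean hyperoxia effect (11), 19 to 378 between strains in room air (152), 21 to 280 in hyperoxia (125), 164 to 819 for the mean strain difference (369) and 371 to 4699 for the pools numbered 3 (4057). Rounding to 0.1 and 2 or 3 pools per group limit what can be seen, and a comparison that did not pass does not show that groups were alike.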

Other observations

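Genes known from Mueller and radial glia split in the pools numbered 3. Slc1a3, a glutamate transporter, stood at 8.9 in SD room-air pool 3, against 9.4 and 9.5, and at 8.7 in F344 hyperoxia pool 3, against 9.2 in both other pools, and fell by 0.53 (limma adjusted p = 0.00179). Vim fell by 0.45 (limma adjusted p = 0.00545), while Clu and Apoe, secreted lipid carriers, each rose by 0.43 (limma adjusted p = 0.0409). Of 12 measured genes of this list 4 fell and 2 rose, against 8.73% and 7.39% of all genes. Fabp7, a gene of the same kind of cell that is not on this list, also rose. The list had 0 calls without SD room-air pool 3 and 1 gene lower without F344 hyperoxia pool 3. Its count of rises was 0 without any 1 of the 3 F344 hyperoxia pools, the 2 F344 room-air pools and SD room-air pool 1, and was 1 without SD room-air pool 2.

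Within the cell cycle list 25 of 26 genes lay below 0 in the same comparison. The exception was Pcna, a replication clamp, at 10.5 in SD room-air pool 3, against 10.4 and 10.3, and 10.3 in F344 hyperoxia pool 3, against 10.1 in both other pools. Its difference of 0.18 did not pass.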
